A study of Rattus norvegicus with 9 samples.

Results

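The 10 macrophage markers were followed in rat liver: Clec4f, Timd4, Vsig4, Marco and Cd163 as markers of resident Kupffer cells, Trem2, Gpnmb, Cd9 and Cd68 as markers of scar-associated macrophages, and Adgre1 as a marker of macrophages in general. These 10 genes were taken by name from the 32883 genes of the table. Of these, 9 were found by symbol. The row for Timd4 carried another symbol, AABR07072096.1, and was matched by its Entrez gene ID, so the resident list held 5 genes and the scar-associated list 4.

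The livers came from male Sprague-Dawley rats aged 8 to 11 weeks, with 3 livers in each of 3 groups. Normal livers came from rats without liver failure. The empty and UTOpiA groups both had acute-on-chronic liver failure (ACLF), for which the common bile duct had been ligated (BDL) 21 days before LPS, bacterial lipopolysaccharide, was given at 0.25 mg/kg. Extracorporeal circulation began 1 h after LPS and lasted 2 h, and livers were taken 24 h after LPS. Per the paper, ACLF rats for liver analysis were drawn at random from survivors. It reports very high mortality within 24 h in the empty group, so the livers of that group stand for its survivors only. The empty circuit was the control. The UTOpiA circuit held a granulocyte and monocyte adsorption column together with organoids of human iPSC-derived hepatocyte-like cells, so the column and the organoids cannot be told apart. No sham-operated, BDL-only or LPS-only liver was analysed here, so the effects of ligation, LPS and circulation cannot be told apart in a comparison with normal livers.

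Kupffer cells are the macrophages that line the liver sinusoids. They take up particles, bacteria and senescent red cells from portal blood. In rodents Clec4f is largely restricted to them. During chronic injury, monocyte-derived macrophages gather along the fibrous septa and around the bile ducts, and these cells are known for Trem2, Gpnmb, Cd9 and Spp1. Cd68, a lysosomal glycoprotein, and Adgre1, the F4/80 antigen, are shared by both kinds of cell. Cd9 is a tetraspanin that bile duct cells and platelets also carry. These were bulk tissue libraries, in which fewer cells of a type and less RNA per cell cannot be told apart.

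Each library held 14241172 to 17321677 counts. Albumin (Alb), the main secreted hepatocyte protein, accounted for 13.3% to 14.9% of counts in the normal group, compared with 1.54% to 3.91% in ACLF. Among the ACLF livers, empty replicate 2, UTOpiA replicate 1 and UTOpiA replicate 3 held the higher Alb levels, from 26860 to 33608 TPM (read share scaled by transcript length). Empty replicates 1 and 3 and UTOpiA replicate 2 held 12840 to 13854 TPM. TPM values are compared within a library per transcript length. They also shifted as a whole: over genes with a mean of at least 1 TPM, the median log2(TPM + 1) difference from normal was 0.44 in empty and 0.28 in UTOpiA livers. Fold changes below therefore come from edgeR on counts, whose median over all 14089 genes tested was 0.04 and 0.05 in the same comparisons. A gene was called when its adjusted p was under 0.05 and its change exceeded 2-fold.

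The 250 bases before the start of 3 markers are shown because their levels took different courses in ACLF: Clec4f, whose mean was lower than normal, and Gpnmb and Cd68, which rose. The sequences are RefSeq's on build GRCr8, written 5′ to 3′ on the strand of the gene, for Clec4f (chr4:117696408-117696657, minus strand), Gpnmb (chr4:79340878-79341127, plus strand) and Cd68 (chr10:54882442-54882691, minus strand). Capitals mark matches on either strand to 3 short motifs: GAGGAAG, a site of the myeloid factor PU.1, TGANTCA, a site of AP-1, and CATGTG, the core of the M-box read by Mitf and Tfe3.
Clec4f: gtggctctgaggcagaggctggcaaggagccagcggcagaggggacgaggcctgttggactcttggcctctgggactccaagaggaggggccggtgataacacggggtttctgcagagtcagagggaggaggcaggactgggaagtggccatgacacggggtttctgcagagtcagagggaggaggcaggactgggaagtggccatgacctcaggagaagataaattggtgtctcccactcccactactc
Gpnmb: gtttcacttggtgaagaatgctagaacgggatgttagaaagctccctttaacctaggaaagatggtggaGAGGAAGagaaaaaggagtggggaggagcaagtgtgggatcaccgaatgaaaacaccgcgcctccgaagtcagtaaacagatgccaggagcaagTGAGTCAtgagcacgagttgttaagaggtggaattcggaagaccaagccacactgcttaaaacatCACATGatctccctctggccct
Cd68: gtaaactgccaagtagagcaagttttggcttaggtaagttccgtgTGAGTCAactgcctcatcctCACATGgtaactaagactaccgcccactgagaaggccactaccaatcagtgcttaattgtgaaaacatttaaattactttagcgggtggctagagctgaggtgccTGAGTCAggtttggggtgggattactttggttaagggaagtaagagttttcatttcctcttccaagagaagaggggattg
Promoters of all 10 members were in the table, and the same windows of 33469 genes gave the background. The PU.1 motif was present in 5 of the 10 (Marco, Trem2, Gpnmb, Cd9 and Adgre1), against 10.2% of all promoters. The AP-1 motif was present in Gpnmb and Cd68, against 6.34%. The M-box core was present in Gpnmb, Cd9 and Cd68, against 12.1%, and the related E-box CACGTG in none of the 10, against 5.59%. No match overlapped another. The windows of Clec4f, Timd4, Vsig4 and Cd163 held none of the 4 motifs, which says only that these letters are not in these windows. A match is a description of sequence, not of binding.

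In normal livers the resident markers led. Clec4f was the highest member at 117 ± 4.75 TPM (SD, n = 3), and it did not overlap with Marco, which followed at 40.4 ± 10.7 TPM. Vsig4 stood at 31.5 ± 1.25 TPM and overlapped with Marco. Cd68 at 13.6 to 19.0 TPM and Cd163 at 13.7 ± 2.47 TPM overlapped each other and lay below Vsig4. Gpnmb at 7.89 ± 2.46 TPM, Adgre1 at 4.91 ± 0.342 TPM and Cd9 at 2.44 ± 0.444 TPM came next. Timd4 and Trem2 were close to undetected. Trem2 had 0 counts in all 3 normal livers and Timd4 had 1 count over all 3. Timd4 is listed as a resident marker, and its row did not behave as one in these normal livers. The match of this row to Timd4 rests on the Entrez gene ID alone and is uncertain.

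**Figure D1:**
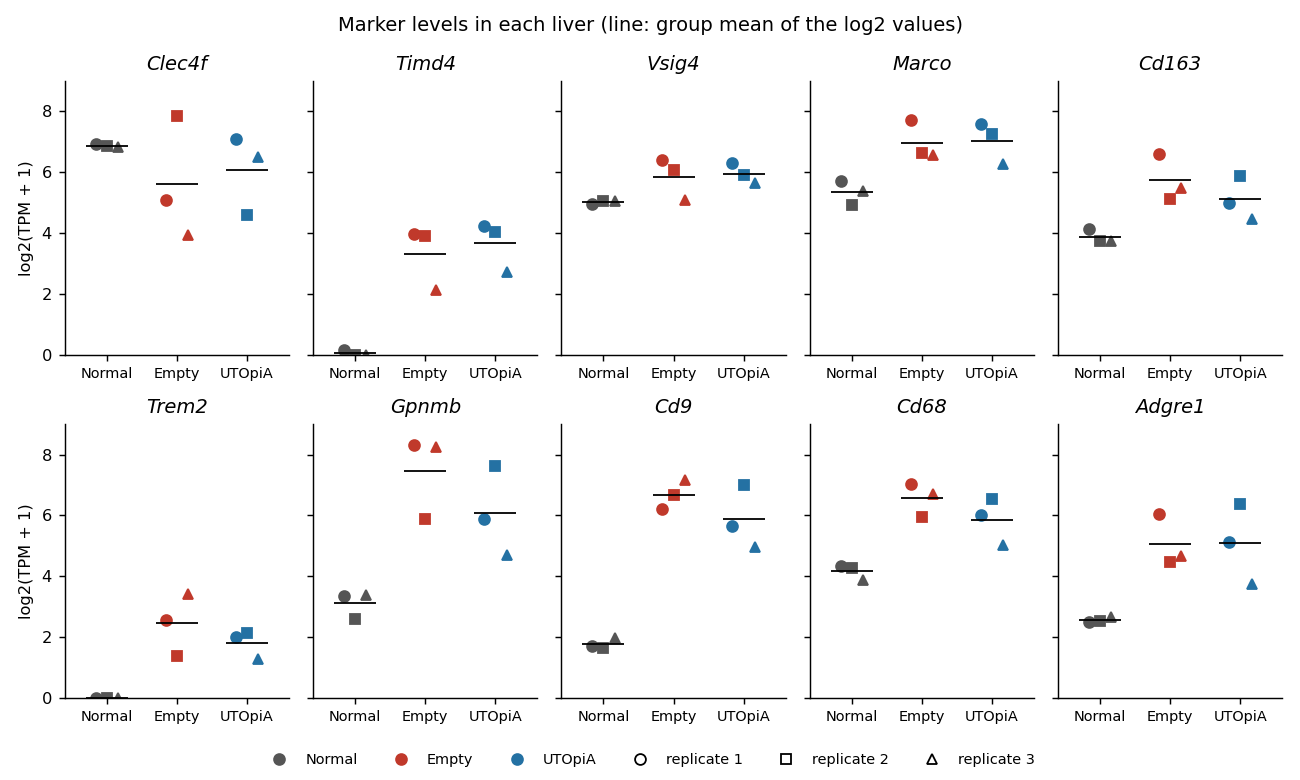
Level of each marker in each of the 9 livers, as log2(TPM + 1) on the vertical axis and group on the horizontal axis. Points are livers, with the marker shape giving the replicate number, and lines are group means. Normal livers lie close together in every panel, whereas Clec4f in ACLF livers runs from 14.3 to 228 TPM.

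In livers of the empty group the order changed. Gpnmb was highest at 225 ± 145 TPM, followed by Marco at 134 ± 66.5 TPM, Cd9 at 105 ± 35.5 TPM and Cd68 at 98.0 ± 34.1 TPM. Clec4f followed at 91.7 ± 118 TPM. Neighbouring members overlapped down to Adgre1 at 37.0 ± 24.7 TPM, so their order is not resolved by 3 livers. Timd4 at 10.6 ± 6.27 TPM and Trem2 at 5.40 ± 4.10 TPM were the lowest. In UTOpiA livers Marco was highest at 140 ± 59.3 TPM, and Gpnmb at 93.2 ± 91.3 TPM and Clec4f at 82.5 ± 56.5 TPM followed without separating from it. Trem2 was again lowest, at 2.59 ± 1.04 TPM.

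Compared with normal livers, 8 of the 10 markers were called higher in livers of the empty group and none was called lower. Of all genes tested, 20.7% were called higher and 11.1% lower. Every marker passed the filter on low counts, but Timd4 and Trem2 did so through the ACLF livers alone and so had to differ. With at least 10 counts required in every library, which removes both, 6 of 8 were called higher. All 4 scar-associated markers, Adgre1 and 3 of the 5 resident markers (Timd4, Marco and Cd163) rose. The median log2 fold change was 4.60 over the scar-associated markers and 1.23 over the resident markers, Trem2 and Timd4 included, against 0.04 over all genes. In TPM, 9 of the 10 markers lay above every normal liver, as did 53.4% of all genes.

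UTOpiA livers gave 7 members called higher than normal and none lower, against 18.2% of genes called higher and 6.81% lower. These were the same genes apart from Cd163, and 5 of 8 were called when Timd4 and Trem2 were removed as above. The median log2 fold change was 3.74 over the scar-associated markers (3.70 with Trem2 at the lower bound given below) and 1.02 over the resident markers, against 0.05 over all genes. Again 9 markers lay above every normal liver in TPM, as did 39.0% of all genes. Both comparisons used the same 3 normal livers.

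**Figure D2:**
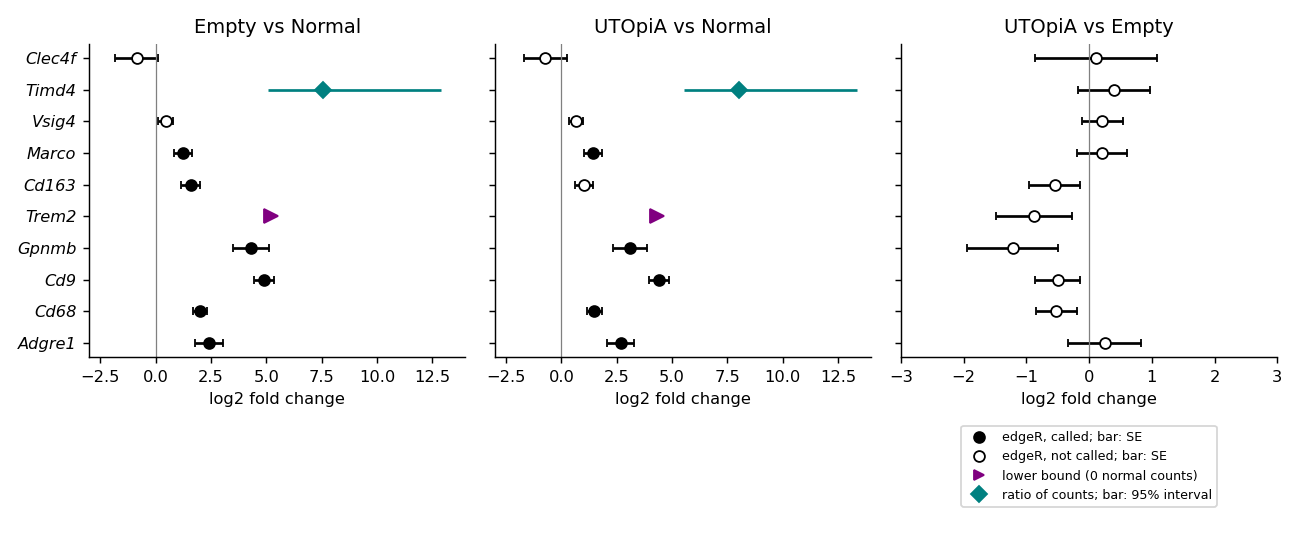
Log2 fold change of each marker in 3 comparisons. Circles are edgeR estimates with the standard error as bar, filled where the gene was called. The triangle for Trem2 is a lower bound against 0 normal counts, and the diamond for Timd4 is a ratio of counts with its 95% interval. No marker is filled in UTOpiA against empty, whose axis is narrower.

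Clec4f, a galactose-binding C-type lectin (rn6, chr4:115322291-115332052), was the one marker with estimates below 0 against normal. It measured 122, 115 and 113 TPM in normal livers 1 to 3. In empty livers 1 to 3 it measured 32.7, 228 and 14.3 TPM, and in UTOpiA livers 1 to 3 it measured 136, 23.1 and 88.6 TPM. Empty replicate 2 lay above every normal liver and the other empty livers far below, so the groups overlapped. The log2 fold change was -0.85 ± 0.97 (SE) in empty livers (edgeR adjusted p = 0.498) and -0.74 ± 0.97 in UTOpiA livers (adjusted p = 0.574). One library decided the first value: without empty replicate 2 it was -2.81 with an adjusted p of 0.0219, which is a call.

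Timd4, a phosphatidylserine receptor for the uptake of dying cells (rn6, chr10:31880918-31915247), moved in the opposite way. It was found at 0.123, 0 and 0 TPM in normal livers. It measured 14.5, 13.9 and 3.35 TPM in empty livers and 17.9, 15.3 and 5.65 TPM in UTOpiA livers, with no overlap with normal. The counts were 1 over the normal livers, 309 over the empty livers and 350 over the UTOpiA livers. Scaled by library size times the edgeR normalization factor (TMM), the ratio was 189 in empty livers (95% exact interval 33.7 to 7502) and 260 in UTOpiA livers (46.3 to 10295). These intervals cover counting error only. Both ratios rest on the 1 count in normal replicate 1. Without that liver the normal livers held 0 counts, and the fitted log2 fold change went from 7.23 to 9.47 in empty and from 7.63 to 9.87 in UTOpiA livers, values that depend on the prior count and are no bound. Since the row passed the filter through the ACLF livers, its difference from normal is given as a description.

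Vsig4, a complement receptor of the immunoglobulin family (rn6, chrX:65370851-65400298), had the smallest standard error of the resident markers. It measured 30.1, 32.4 and 32.1 TPM in normal livers, 82.9, 65.6 and 33.0 TPM in empty livers, and 78.1, 58.4 and 49.6 TPM in UTOpiA livers. Every ACLF liver lay above the normal ones in TPM, empty replicate 3 only just. On the count scale the log2 fold change was 0.45 ± 0.33 in empty livers and 0.66 ± 0.33 in UTOpiA livers, and neither was called (edgeR adjusted p = 0.288 and 0.143).

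Marco, a scavenger receptor for bacteria and particles, measured 50.9, 29.6 and 40.8 TPM in normal livers. It measured 210, 97.4 and 92.9 TPM in empty livers and 193, 152 and 75.8 TPM in UTOpiA livers, all above normal. The log2 fold change was 1.23 ± 0.41 in empty livers (edgeR adjusted p = 0.0330) and 1.43 ± 0.41 in UTOpiA livers (adjusted p = 0.0223). Both calls were close to the threshold. The first was lost when normal replicate 2, normal replicate 3, empty replicate 1 or UTOpiA replicate 2 was left out (adjusted p = 0.110, 0.0831, 0.116 and 0.0502), and the change was then 0.67 without empty replicate 1. The second was lost without normal replicate 2, normal replicate 3, UTOpiA replicate 1 or UTOpiA replicate 2 (adjusted p = 0.0815, 0.0648, 0.0780 and 0.0515). The table places Marco on chr16:85115201-85135859, and the RefSeq table of the later build lists it on another chromosome, so the identity of its row is uncertain.

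Cd163, the receptor for haptoglobin-haemoglobin complexes (rn6, chr4:156752082-156785467), measured 16.6, 12.3 and 12.4 TPM in normal livers. It measured 95.4, 33.9 and 43.9 TPM in empty livers and 31.0, 58.1 and 20.9 TPM in UTOpiA livers, again without overlap with normal. The rise in empty livers was called, at a log2 fold change of 1.58 ± 0.42 (edgeR adjusted p = 0.0131). In UTOpiA livers it was 1.02 ± 0.41 and not called (adjusted p = 0.0780). Empty replicate 1 carried much of the first value, which was 0.93 without it and no longer past 2-fold. It was also lost without normal replicate 2 (adjusted p = 0.0504). The second value became a call in 5 of 18 alternatives.

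Trem2, a lipid-sensing receptor of the macrophage surface (rn6, chr9:14611561-14618013), had 0 counts in each normal liver. It had 56, 17 and 106 counts in empty livers (4.86, 1.60 and 9.75 TPM) and 29, 36 and 15 counts in UTOpiA livers (2.98, 3.37 and 1.41 TPM). Every ACLF liver had Trem2 reads and no normal liver did. Set against a floor of 3 counts over the normal group, with the scaling used for Timd4, Trem2 was at least 36.6-fold higher in empty livers. In UTOpiA livers it was at least 19.8-fold higher. Like Timd4, it passed the filter through the ACLF livers, and these values are a description. It remained a gene of low level, at most 9.75 TPM in any liver.

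Gpnmb, a lysosomal and cell-surface glycoprotein (rn6, chr4:78694447-78715683), was the marker with the highest mean in empty livers. It measured 9.16, 5.05 and 9.46 TPM in normal livers, 316, 57.6 and 301 TPM in empty livers, and 57.7, 197 and 24.9 TPM in UTOpiA livers. The lowest ACLF liver, UTOpiA replicate 3, was still above every normal one. The log2 fold change was 4.31 ± 0.83 in empty livers (edgeR adjusted p = 0.00310) and 3.09 ± 0.78 in UTOpiA livers (adjusted p = 0.0144). The second call was lost without normal replicate 2 (adjusted p = 0.0552) or UTOpiA replicate 2 (adjusted p = 0.0555), and without the latter the value was 2.15.

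Cd9 (rn6, chr4:157977162-158010166) changed with the least error of the scar-associated markers relative to its size. It measured 2.25, 2.12 and 2.95 TPM in normal livers, 72.5, 100 and 143 TPM in empty livers, and 49.6, 127 and 30.4 TPM in UTOpiA livers. The log2 fold change was 4.88 ± 0.45 in empty livers (edgeR adjusted p = 0.000113) and 4.39 ± 0.45 in UTOpiA livers (adjusted p = 0.000254). Both were called in all 18 alternatives. Markers of bile duct cells moved with it: Epcam, the epithelial adhesion molecule, rose from 13.5 to 20.5 TPM in normal livers to 63.7 to 239 TPM in ACLF livers. All 7 bile duct markers tested were called higher in both comparisons, and the part of bile duct cells in the Cd9 level was not tested.

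Cd68 (rn6, chr10:56268720-56270640) measured 19.0, 18.5 and 13.6 TPM in normal livers, 129, 61.4 and 104 TPM in empty livers, and 64.0, 93.0 and 31.4 TPM in UTOpiA livers. Its log2 fold change was 2.01 ± 0.33 in empty livers (edgeR adjusted p = 0.00132) and 1.49 ± 0.33 in UTOpiA livers (adjusted p = 0.00703). Adgre1 (rn6, chr9:9431860-9585865) measured 4.63, 4.82 and 5.29 TPM in normal livers, 65.5, 21.2 and 24.2 TPM in empty livers, and 33.8, 82.4 and 12.5 TPM in UTOpiA livers. Its log2 fold change was 2.42 ± 0.62 (adjusted p = 0.0116) and 2.67 ± 0.62 (adjusted p = 0.0102). Without empty replicate 1 the first Adgre1 value was 1.64, and without UTOpiA replicate 2 the second was 1.98. Both genes were called in every alternative, and every ACLF liver lay above the normal livers. In 3 livers against 3, the exact two-sided permutation test of TPM cannot go below p = 0.1, the value that every marker except Clec4f reached against normal.

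The resident and scar-associated lists were then set against each other within each liver, as the mean log2(TPM + 1) of the 5 resident markers minus that of the 4 scar-associated markers. The difference was 2.04, 1.99 and 1.89 in normal livers. It was -0.07, 0.94 and -1.75 in empty livers, and 1.16, -0.30 and 1.13 in UTOpiA livers. Group means were 1.97 ± 0.07 (SD) in normal, -0.29 ± 1.36 in empty and 0.66 ± 0.83 in UTOpiA livers, so each ACLF liver had a smaller lead of resident markers than any normal liver. The resident mean itself went from 4.23 ± 0.13 in normal livers to 5.50 ± 0.74 in empty and 5.57 ± 0.47 in UTOpiA livers. The scar-associated mean went from 2.26 ± 0.11 to 5.79 ± 0.74 and 4.90 ± 0.92. Timd4 made up a large share of the resident difference: without it the resident mean was 5.28 ± 0.15 in normal, 6.04 ± 0.67 in empty and 6.04 ± 0.41 in UTOpiA livers, and empty replicate 3 at 5.27 lay within the normal range of 5.15 to 5.43. Summed TPM of the 5 resident markers in that liver was 187, below the 190 to 220 of normal livers. The means are on the TPM scale, which was shifted as a whole as given above. These values are given as a description without a test.

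**Figure D3:**
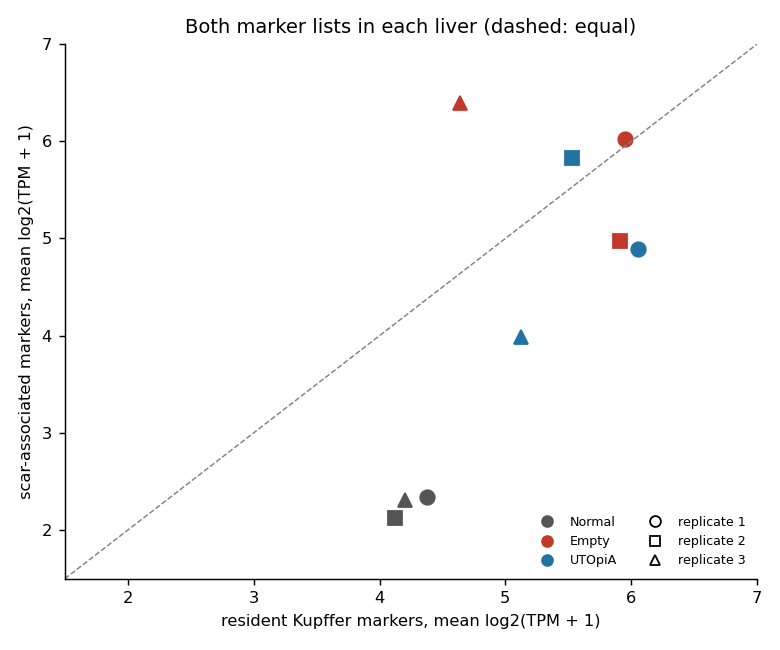
Mean log2(TPM + 1) of the 5 resident Kupffer markers (horizontal) and of the 4 scar-associated markers (vertical) in each liver. Colours give the group and shapes the replicate number, and the dashed line marks equal means. Normal livers sit together far below the line, and empty replicates 1 and 3 and UTOpiA replicate 2 lie above it.

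Compared with the empty group, no marker was called in UTOpiA livers in either direction, nor was any of all genes tested (0%). The count over all genes depended on single libraries. It was 26 higher and 22 lower without empty replicate 2, and 32 higher and 17 lower without UTOpiA replicate 2. No marker was called in either of these fits. With all 9 libraries, 1456 genes had an unadjusted edgeR p under 0.05, 10.3% of those tested. None was a marker, which for 10 genes is near that share. DESeq2 called 52 genes higher and 74 lower, also without a marker. The paper, with DESeq2 and the same thresholds, reports more genes in both directions, and the cause of this difference was not tested. All 10 markers overlapped between the groups in TPM. Of all genes, 2.43% lay entirely higher in UTOpiA livers and 8.62% entirely lower, so none of 10 is near these shares. The 4 scar-associated markers had negative estimates and 4 of the 5 resident markers positive ones, against 49.8% of all genes below 0. The log2 fold change was -1.22 ± 0.72 for Gpnmb (edgeR adjusted p = 0.598), -0.88 ± 0.61 for Trem2 (adjusted p = 0.663), -0.52 ± 0.32 for Cd68 (adjusted p = 0.604) and -0.50 ± 0.36 for Cd9 (adjusted p = 0.676). With 1 library left out, these 4 values ranged from -2.16 (without UTOpiA replicate 2) to -0.81 (without empty replicate 1) for Gpnmb and from -1.30 (without empty replicate 2) to -0.24 (without empty replicate 3) for Trem2, from -0.76 to -0.21 for Cd68 and from -1.07 to -0.23 for Cd9, all uncalled. The estimate was 0.11 ± 0.97 for Clec4f (adjusted p = 0.980) and 0.20 ± 0.40 for Marco (adjusted p = 0.898). Timd4, Vsig4 and Adgre1 stood at 0.40 ± 0.57, 0.21 ± 0.33 and 0.25 ± 0.58, and Cd163 at -0.55 ± 0.41. The signs of these 6 did not hold when 1 library was left out: the values ran from -0.41 to 2.06 for Clec4f, -0.04 to 0.74 for Timd4, -0.11 to 0.56 for Vsig4, -0.12 to 0.76 for Marco, -0.86 to 0.10 for Cd163 and -0.44 to 1.03 for Adgre1. For 9 of the 10 markers, all but Vsig4, a range of 2 standard errors around the estimate reached past a 2-fold change, so 3 livers per group do not show that the groups were alike.

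For Clec4f the livers within an ACLF group differed by more than the group means did. From highest to lowest Clec4f, the 6 ACLF livers were empty replicate 2 (228 TPM), UTOpiA replicate 1 (136 TPM), UTOpiA replicate 3 (88.6 TPM), empty replicate 1 (32.7 TPM), UTOpiA replicate 2 (23.1 TPM) and empty replicate 3 (14.3 TPM). Alb ran in the same order, at 33608, 29936, 26860, 13854, 13022 and 12840 TPM. Gpnmb in that order was 57.6, 57.7, 24.9, 316, 197 and 301 TPM, so the 3 livers lowest in Clec4f were the 3 highest in Gpnmb. Both ends of this order held livers of both groups. The pattern was noticed in these data, and no test was made of it.

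**Figure D4:**
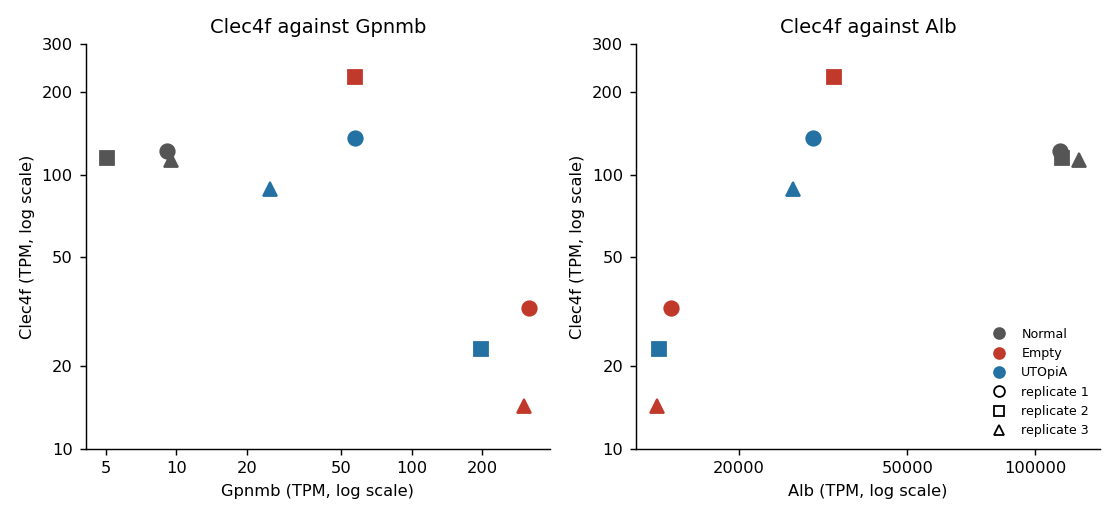
Clec4f against Gpnmb (left) and against albumin (right) in the 9 livers, in TPM on log axes, with colours for the group and shapes for the replicate number. Normal livers hold 113 to 122 TPM of Clec4f, and in the ACLF livers Clec4f falls in the same order as Alb.

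Relative to Csf1r, the receptor on which macrophages depend for survival, all 6 ACLF livers held less Clec4f than the normal livers. Csf1r measured 14.4 to 18.5 TPM in normal and 27.5 to 120 TPM in ACLF livers. The TPM ratio of Clec4f to Csf1r was 6.61, 8.03 and 7.58 in normal livers, 0.272, 3.56 and 0.154 in empty livers, and 2.17, 0.236 and 3.22 in UTOpiA livers. The other resident markers did not share one course. Cd163 was also lower relative to Csf1r in all 6, at 0.832 to 0.900 in normal and 0.471 to 0.795 in ACLF livers. Timd4 went the other way, from at most 0.00666 to between 0.0358 and 0.287. The ratios of Marco (2.06 to 2.76 without ACLF and 0.995 to 3.09 with it) and Vsig4 (1.63 to 2.26 and 0.353 to 1.80) overlapped. Cd68 stayed near Csf1r, at ratios of 0.910 to 1.29 without ACLF and 0.951 to 1.14 with it. The ratio of Gpnmb was 0.352 to 0.635 in normal livers, 2.63, 0.899 and 3.22 in empty and 0.924, 2.01 and 0.906 in UTOpiA livers, so it was above normal in all 6 ACLF livers and Gpnmb exceeded Csf1r in 3 of them. The ratio to Csf1r was chosen after values were seen and is given without a test.

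Genes with the most similar course were sought for each marker among all genes tested, by Pearson's r of log2 CPM (library-scaled counts) over the 9 libraries. The libraries share group, composition and depth differences, so these values are descriptions. Clec4f was most like Man1a1 (r = 0.977), Ulk1 (r = 0.972) and Mtss1 (r = 0.964). Cd9 was most like Sctr, the secretin receptor of bile duct cells (r = 0.998), Bend5 (r = 0.998) and Dbn1 (r = 0.998). Cd68 was most like the leukocyte integrin chain Itgb2 (r = 0.990), Aoah (r = 0.990) and the Fc receptor Fcgr2a (r = 0.988). Gpnmb was most like Alox5ap, which serves leukotriene synthesis (r = 0.992), Prpf38a (r = 0.988) and Lilrc2 (r = 0.988). Trem2 was most like Palm (r = 0.996), Timp1 (r = 0.995) and Sh3kbp1 (r = 0.995), and Adgre1 was most like Zeb2 (r = 0.984), Bclaf3 (r = 0.980) and Dysf (r = 0.980). The closest gene was LOC361346 for Timd4 (r = 0.983), LOC690035 for Vsig4 (r = 0.941), Zap70 for Marco (r = 0.956) and Wnt6 for Cd163 (r = 0.965).

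With group means removed, the same measure describes how livers differed within groups. The deviations of Clec4f were then closest to Thrsp, a regulator of fat synthesis (r = 0.997), Fah, an enzyme of tyrosine breakdown (r = 0.996), and Bhmt2, a methyltransferase (r = 0.995), all of which hepatocytes express. Those of Gpnmb were closest to Fcgr1a, the high-affinity Fc receptor (r = 0.991), Slc11a1, a phagosomal metal transporter (r = 0.987), and the leukocyte tetraspanin Cd53 (r = 0.983). The deviations of Clec4f and Gpnmb ran against each other (r = -0.864). For Cd68 the closest were Clec4a2 (r = 0.977) and the leukocyte marker Ptprc (r = 0.976). Cd163 and Adgre1 both had Zeb2 among their 3 closest genes (r = 0.947 and 0.971).

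Other Kupffer cell genes were divided. Of 14 tested, 6 were called higher in empty livers (Folr2, Hmox1, Il18bp, Pltp, Spic and Axl) and none lower. The median log2 fold change over all 14 was 0.85. The other 8, which included the secreted macrophage protein Cd5l and the lectins Clec1b and Fcna, were not called. Hmox1, the haem-degrading enzyme, had the highest mean of the list over all 9 livers, although Nr1h3 led in normal and C6 in UTOpiA livers. It measured 25.9, 20.5 and 24.3 TPM in normal livers, 358, 406 and 304 TPM in empty livers and 170, 152 and 447 TPM in UTOpiA livers. Its log2 fold change was 3.40 ± 0.54 (edgeR adjusted p = 0.00113) and 3.26 ± 0.53 (adjusted p = 0.00190). Spic, the factor of iron-recycling macrophages, rose in empty livers by 2.80 ± 0.88 (adjusted p = 0.0259) and was not called in UTOpiA livers at 1.96 ± 0.88 (adjusted p = 0.106). In UTOpiA livers 5 of the 14 were called higher and none lower, with a median of 0.68 over all 14.

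Other genes of scar-associated macrophages mostly rose with the 4 markers. Of 14 tested, 8 were called higher and 1 lower in empty livers (median 1.88), and 8 higher and 2 lower in UTOpiA livers (median 2.11). Lpl, lipoprotein lipase, went from 0.285 to 0.929 TPM in normal livers to 30.1 to 175 TPM in empty and 35.0 to 100 TPM in UTOpiA livers. Its log2 fold change was 6.75 ± 0.77 in empty livers (edgeR adjusted p = 0.000287). Spp1, osteopontin, which bile duct cells also make, rose by 6.62 ± 0.94 (adjusted p = 0.000800). The cathepsin Ctsl had the highest mean of the list over all 9 livers, although Ctsb led in normal livers. It measured 297 to 350 TPM in normal and 1572 to 1670 TPM in empty livers. Fabp5, a fatty acid binding protein of the same list, ran the other way: it measured 240, 462 and 350 TPM in normal livers, 99.8, 129 and 129 TPM in empty livers and 75.9, 68.1 and 70.4 TPM in UTOpiA livers. It was called lower in both (log2 fold change -2.08 ± 0.25 and -2.59 ± 0.25, adjusted p = 0.000266 and 0.000177).

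Trem2 signals through the adaptor Tyrobp, which recruits the kinase Syk. Of 9 genes of this pathway, 7 were called higher in empty and 6 in UTOpiA livers, and none lower, with medians of 1.90 and 1.76. Tyrobp measured 23.0, 20.3 and 24.1 TPM in normal livers, 224, 78.7 and 248 TPM in empty livers and 143, 189 and 62.6 TPM in UTOpiA livers, at a log2 fold change of 2.50 ± 0.42 (edgeR adjusted p = 0.00162) and 2.16 ± 0.42 (adjusted p = 0.00437). Unlike Trem2, the adaptor was readily detected in normal livers. Ms4a7, a macrophage membrane protein of the family linked to Trem2, had 5 counts over the normal livers and was called higher in both comparisons (adjusted p = 0.00926 and 0.0171). Apoe, a Trem2 ligand that hepatocytes also secrete, measured 11567 to 12820 TPM in normal and 8389 to 12407 TPM in ACLF livers and was not called (adjusted p = 0.0579 in empty livers).

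Genes shared by monocytes and macrophages rose almost as a whole. Of 16 tested, 15 were called higher in empty and 13 in UTOpiA livers, none lower, with medians of 2.24 and 1.88. Mrc1, the mannose receptor, was called in neither, and Cd14 and Ccl2 were not called in UTOpiA livers. Lyz2, the lysozyme, had the highest mean of the list over all 9 livers, although C1qc led in normal livers. It measured 10.6 to 17.7 TPM in normal livers, 824, 282 and 783 TPM in empty livers and 282, 1043 and 169 TPM in UTOpiA livers (log2 fold change 4.97 ± 0.68 and 4.69 ± 0.67, edgeR adjusted p = 0.000586 and 0.00106). Ccl2, the chemokine that draws monocytes, measured 0.599, 0.141 and 0.556 TPM in normal livers, 30.4, 431 and 46.9 TPM in empty livers and 8.98, 21.7 and 2.60 TPM in UTOpiA livers. It was called in empty livers (adjusted p = 0.00258) and not in UTOpiA livers (adjusted p = 0.0572), and the empty and UTOpiA livers did not overlap, without passing the test between them (log2 fold change -3.86 ± 1.06, adjusted p = 0.348).

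**Figure D5:**
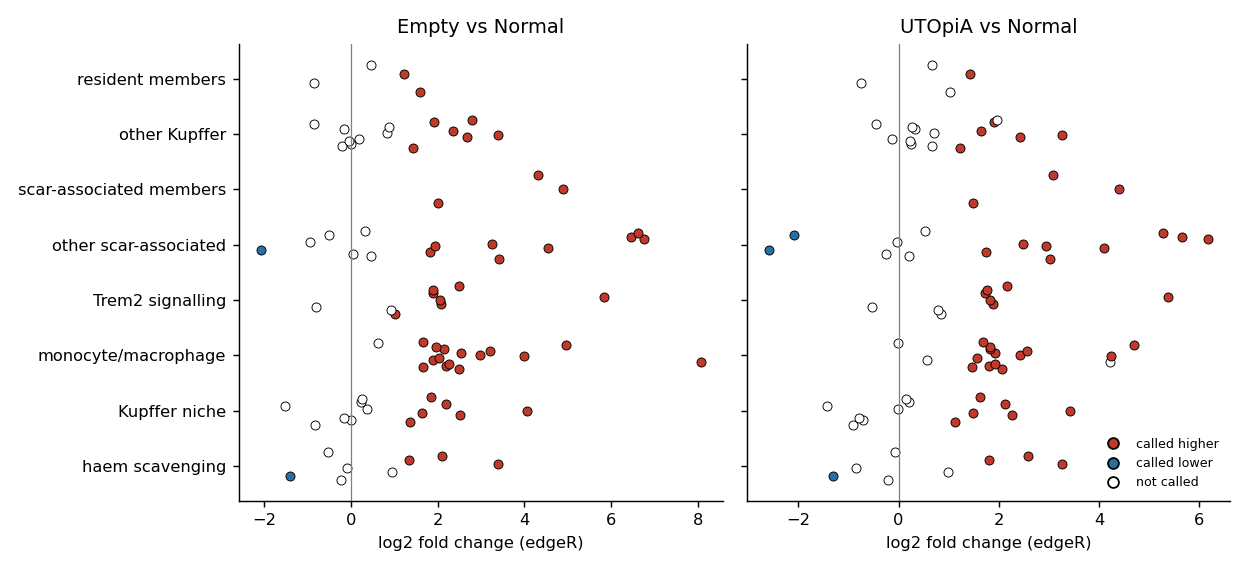
Log2 fold change of each gene of 8 macrophage lists in empty (left) and UTOpiA livers (right) against normal. Points are genes, red where called higher, blue where called lower and white where not called, and genes with at most 3 counts over the normal livers are left out. The monocyte and macrophage genes lie to the right of 0 almost as a whole, and 5 of 14 other Kupffer cell genes in empty and 2 of 14 in UTOpiA livers lie below it.

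Kupffer cells depend on signals of neighbouring cells. Of 13 genes of this niche, 6 were called higher and none lower in both comparisons: the growth factors Csf1 and Il34, Tgfb1 and the receptor chains Csf2ra, Csf2rb and Acvrl1. Csf2rb rose by 4.07 ± 0.38 in empty livers (edgeR adjusted p = 0.000113) and Csf1 by 2.51 ± 0.33 (adjusted p = 0.000450). The notch ligand Dll4 and the ligands Gdf2, Bmp10 and Bmp2 were not called. Nr1h2 had the highest mean of the list over all 9 livers, although Abca1 led in normal livers. It stood at 22.3 to 27.6 TPM in normal and 28.8 to 51.9 TPM in ACLF livers and was not called (adjusted p = 0.222 and 0.268). In haem handling, which Cd163 serves, 3 of 8 genes were called higher and 1 lower in both comparisons, and 1 of 8 is near the 11.1% of all genes called lower in empty livers. Hp, the haptoglobin that Cd163 binds, measured 10036 to 11948 TPM in normal and 36385 to 51555 TPM in ACLF livers, and haemopexin (Hpx) rose by 2.09 ± 0.42 and 2.58 ± 0.43 (adjusted p = 0.00330 and 0.00184). Biliverdin reductase Blvrb fell by 1.42 ± 0.19 and 1.30 ± 0.19 (adjusted p = 0.000461 and 0.000994).

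Markers of other cell types did not share one direction. Summed TPM of 13 neutrophil genes was 6.12 to 8.91 in normal, 835 to 2715 in empty and 5535 to 6701 in UTOpiA livers, led by Lcn2, which injured hepatocytes also make, and 2 of the 13 (Mpo and Ltf) had at most 3 counts in every library. Without Lcn2, a sum formed after values were seen, it was 2.35 to 5.96, 192 to 1123 and 176 to 513, and the empty and UTOpiA livers overlapped. Of the 7 neutrophil genes tested, none was called between UTOpiA and empty livers, and the 6 other than Lcn2 had estimates below 0. The sum of 8 bile duct genes was 14.8 to 22.7, 209 to 461 and 112 to 359, led by Epcam. That of 8 stellate cell and fibroblast genes was 105 to 116, 859 to 1058 and 449 to 1049, led by Col3a1. The sum of 7 sinusoidal endothelial genes, led by Fcgr2b, was 122 to 134, 108 to 195 and 87.3 to 141, with 1 of 7 called lower (Kdr), near the same 11.1% of all genes in empty livers, and none higher. Hepatocyte genes, led by Alb, summed to 167741 to 183519, 33323 to 74278 and 38599 to 68276. Platelet genes, led by Itgb3 in normal and Pf4 in ACLF livers, summed to 13.6 to 14.8, 28.4 to 45.1 and 25.5 to 46.7, with Gp1bb at most 3 counts. This list went both ways: of 3 tested in empty livers, Pf4 was called higher and Itga2b lower. The log2 fold change of Itga2b was -1.07 ± 0.21 in empty livers (edgeR adjusted p = 0.00279) and -0.88 ± 0.21 in UTOpiA livers, the latter not called. T and NK cell genes, led by Cd4, which rat macrophages also carry, summed to 12.1 to 14.8, 62.6 to 95.9 and 31.4 to 97.8. Proliferation genes, led by Birc5 in normal and Cdk1 in ACLF livers, summed to 4.07 to 11.7, 19.5 to 41.3 and 19.6 to 45.3, with 4 of 5 called higher in both comparisons. Dendritic cell genes, led by Cd83 in empty and by Batf3 in normal and UTOpiA livers, summed to 5.59 to 6.21, 14.1 to 38.5 and 10.5 to 19.1. Of these, 1 of 5 was called higher in each comparison, Cd83 in empty and Batf3 in UTOpiA livers. That is near the 20.7% and 18.2% of all genes called higher. B and plasma cell genes, led by Jchain, summed to 8.32 to 12.8, 12.3 to 20.8 and 10.8 to 16.3, with none of 3 called. The part of these cells in the marker levels was not tested.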

How the data were processed

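Poly(A) RNA-seq of 9 rat livers was read from 2 deposited tables, gene counts and TPM. Per the labels and the submitters' processing notes, the authors trimmed reads (Trimmomatic), aligned them (HISAT2, rn6) and counted them (featureCounts). The study's methods name another trimmer, kit and a mouse build, and the tables list rat Ensembl genes. The strand setting is not given in the sources used here. The authors' TPM was used as deposited.

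Counts were fitted over all 9 libraries with edgeR 4.0.16 (TMM, filterByExpr, robust quasi-likelihood test, Benjamini-Hochberg adjustment over 14089 genes), after tests on simulated data. DESeq2 1.42.0, limma 3.58.1 on log2(TPM + 1) and other filters were alternatives. Exact permutation tests used scipy 1.17.1 (two-sided). Named genes were the 10 members, and of each macrophage list the gene with the highest mean TPM and, for empty against normal, at most 2 called genes per direction by size of change. Other lists gave the highest TPM alone. Genes named beyond this rule, such as Mrc1, Cd14, Cd5l, Dll4, Batf3, Kdr and those leading a list in 1 group, and the motifs were chosen after values were seen. Up to 3 genes most like each member by r were named. For Timd4, Vsig4, Marco and Cd163 only the closest is given, and with group means removed only part of the members and genes. Members and lists were chosen with earlier results of these data known. Libraries are biological replicates per the labels. No batch is given. Intervals cover counting error only.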

Additional observations from a re-analysis of the deposited data

How the results depend on the processing

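The counts of members called higher stayed within 1.5 times under every alternative run, at 6 to 8 in empty and 5 to 8 in UTOpiA livers against normal, and no alternative called a member in UTOpiA against empty. The lowest counts outside left-out libraries came with the filter of at least 10 counts in every library, which removes Timd4 and Trem2. Members called lower in empty against normal ranged from 0 to 1 over left-out libraries, the 1 being Clec4f without empty replicate 2. Cd163 in UTOpiA against normal became a call with DESeq2 (1.02, adjusted p = 0.0428), limma on log2(TPM + 0.1) (1.29, adjusted p = 0.0471) and the 6 libraries of these groups alone (1.04, adjusted p = 0.0171), and without empty replicate 1 or 2. The cause was not tested. The difference of resident and scar-associated means in UTOpiA against normal was -1.31, and -2.38 with the median of the genes. Over left-out libraries it ran from -1.56 to -0.83, in empty against normal (-2.27) from -2.88 to -1.54, and in UTOpiA against empty (0.96) from 0.23 to 1.58.

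In UTOpiA against empty the sign of 6 members, none of them called, turned when a library was left out: Clec4f ran from -0.41 to 2.06, Timd4 from -0.04 to 0.74, Vsig4 from -0.11 to 0.56, Marco from -0.12 to 0.76, Cd163 from -0.86 to 0.10 and Adgre1 from -0.44 to 1.03. The 2 alternatives added after seeing the data gave these values: without Timd4 the difference of means was -2.77, -1.88 and 0.89 in the order above (empty against normal, UTOpiA against normal, UTOpiA against empty), and over the 9 members found by symbol 7 and 6 were called higher.

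Replicate numbers did not pair the livers: the deviations of same-numbered libraries correlated at -0.183 to 0.0638. With the replicate block, 8, 7 and 0 members were called higher in the 3 comparisons, as without it. Low counts limit Trem2 and Timd4, and 3 livers per group limit every comparison between ACLF groups.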
